A study of Rattus norvegicus with 4 samples.

Results

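Glucose enters a cell through facilitative transporters of the SLC2A (GLUT) family, and the cytosolic enzymes of glycolysis split it to pyruvate, which lactate dehydrogenase can reduce to lactate. The lens has no blood vessels and little oxygen, and it draws most of its ATP from this anaerobic route on glucose taken up from the aqueous humor. Of 10 genes of this route (the glucose transporter *Slc2a1*, the enzymes *Hk1*, *Gpi*, *Pfkm*, *Aldoa*, *Tpi1*, *Pgk1*, *Eno1* and *Pkm*, and *Ldha*), 9 had a probe set that the platform annotation assigns to that gene alone, with 14 probe sets of the 31042 on the array. *Pkm* had none and was not analysed here. Each gene was represented by its brightest probe set, as was each of the 14217 genes with a probe set of their own. RNA came from lens capsules with lens epithelial cells (LECs) of female albino Sprague-Dawley rats that underwent extracapsular lens extraction (ECLE), the removal of the lens content through the opened capsule, at 7 weeks of age. One array held capsules taken at day 0, when surgery was complete (rats 7 weeks old). At week 1, labeled 1W and day 7 (rats 8 weeks old), 2 arrays were labeled as biological replicates, and 1 array held week 2, labeled 2W and day 14 (rats 9 weeks old). There was no unoperated group. More samples per time point are described in the methods than there are arrays here, and the number of eyes pooled on an array could not be found in the labels or methods.

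None of the 9 genes passed the test at either time, and their ratios are given as values. Relative to the array mean, at week 1 all 9 genes were within 0.5 log2 units of day 0, where 72.0% of the 10455 genes tested were. At week 2 it was 6 of 9, where 51.4% of all genes tested were. The other 3 at week 2 were *Slc2a1* (log2 ratio -0.77), *Pfkm* (-0.93) and *Pgk1* (0.72). These shares, and those below, are over genes of all tested intensities. Of the 9 genes, 7 were at or above the 98.7 percentile of each array, and no shares were computed over genes of like intensity. Which genes lay beyond 0.5 depended on the scaling. *Slc2a1* was at -0.50 under median and -0.45 under 75th percentile scaling. *Pgk1* was at 0.21 after quantile normalization and 0.15 with the values as deposited. *Gpi* and *Tpi1* were at 0.59 and 0.68 under median and 0.64 and 0.72 under 75th percentile scaling, and *Hk1* and *Ldha* were at -0.64 and -0.57 as deposited. The median log2 ratio to day 0 over the 9 genes was 0.04 at week 1 and 0.07 at week 2 with each array divided by its mean intensity, against -0.01 and -0.21 over all genes tested. At week 2 the sign of this median depended on the scaling, since it was -0.30 after quantile normalization and -0.50 with the values as deposited, where all genes tested had medians of 0.03 and -0.78. The test was limma, a linear model over the 18625 probe sets that passed the intensity filter with Benjamini-Hochberg adjustment at 0.05, and it called 0 of the 9 (lowest adjusted p = 0.255 at week 1 for *Tpi1* and 0.0647 at week 2 for *Slc2a1*). limma called 0.0478% of the genes tested higher and 0% lower at each time. At an unadjusted p under 0.05, 1 of the 9 was higher and 0 were lower at week 1, against 10.4% and 8.92% of all genes tested, and 2 were higher and 2 lower at week 2, against 10.8% and 22.0%. The fold rule of the study takes genes over 2.0-fold or under 0.5-fold. By its brightest probe set, relative to the array mean, no member met it at either time. Of the genes tested, 4.95% were over and 3.71% under at week 1, and 6.60% and 12.3% at week 2. The second probe set of *Pgk1* was at 2.39-fold at week 2. Under 75th percentile scaling and after quantile normalization 1 member met the rule at week 2, and as deposited 2 did. Between week 2 and week 1 limma called 0 of the 9 and 0% of the genes tested in either direction. At an unadjusted p under 0.05, 1 of the 9 was higher and 2 were lower at week 2 than at week 1, against 6.02% and 18.7% of all genes tested, while 2.49% and 5.13% of all genes tested were over 2.0-fold and under 0.5-fold there. Within 0.5 log2 units of week 1 were 6 of the 9 and 64.8% of all genes tested. On each of the 3 arrays after ECLE, scaled by their means, 6 of the 9 were within 0.5 log2 units of day 0 (38.0% of all genes tested), 4 were above it (26.6%) and 2 below it (36.4%).

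Several genes of this pathway carry the hypoxia response element, the binding site of the HIF transcription factors, whose core is the letters ACGTG or GCGTG. The RefSeq promoter windows of *Slc2a1*, *Pfkm* and *Ldha* (rat build GRCr8, 250 bases before to 50 after the start, 5′ to 3′ along the gene) are shown because the first and second had the lowest ratios at week 2, while *Ldha* had the ratio nearest to 0 relative to the array mean. Capitals mark each match to the core on either strand.
Slc2a1, chr5:138002272-138002571, plus strand: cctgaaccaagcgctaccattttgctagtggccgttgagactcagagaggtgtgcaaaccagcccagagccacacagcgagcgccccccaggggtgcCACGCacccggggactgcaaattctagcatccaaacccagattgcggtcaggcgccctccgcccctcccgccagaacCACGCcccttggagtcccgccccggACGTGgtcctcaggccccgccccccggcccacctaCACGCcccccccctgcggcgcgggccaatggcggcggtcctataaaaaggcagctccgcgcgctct
Pfkm, chr7:131113849-131114148, plus strand: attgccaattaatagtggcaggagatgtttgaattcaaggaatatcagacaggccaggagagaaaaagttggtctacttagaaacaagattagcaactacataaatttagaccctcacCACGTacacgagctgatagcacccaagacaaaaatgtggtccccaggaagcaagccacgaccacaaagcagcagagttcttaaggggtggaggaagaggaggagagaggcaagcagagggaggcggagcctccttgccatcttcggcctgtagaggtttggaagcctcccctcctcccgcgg
Ldha, chr1:106507842-106508141, plus strand: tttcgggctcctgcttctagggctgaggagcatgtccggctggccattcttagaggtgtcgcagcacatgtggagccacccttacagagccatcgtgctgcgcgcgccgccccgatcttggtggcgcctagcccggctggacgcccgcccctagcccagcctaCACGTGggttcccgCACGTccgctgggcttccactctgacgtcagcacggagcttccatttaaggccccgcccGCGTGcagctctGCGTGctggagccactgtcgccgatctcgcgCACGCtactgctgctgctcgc
ACGTG matched 1 time in the window of *Slc2a1*, 1 time in that of *Pfkm* and 3 times in that of *Ldha*, where the palindrome CACGTG counts on both strands. GCGTG matched 3, 0 and 3 times in the same order. For the 10 genes, 13 windows of 9 genes were listed, some genes having several starts, and *Pgk1* was not among them. At least one of the cores was in 8 of the 13 windows (61.5%), against 56.4% of the 13242 windows of genes on the array and 41.6% of all 33469 windows. Both cores hold a CG pair, and the median number of CG pairs per window was 19, 18 and 7 in the same order. The 13 windows include that of *Pkm* and count each start of a gene. ACGTG alone was in 7 of the 13 (53.8%), against 23.4% of the windows of genes on the array and 19.3% of all windows. These matches describe letters in a window and not binding.

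*Slc2a1* encodes GLUT1, the glucose transporter of the rat lens epithelium. It had intensities of 7375 at day 0, 5432 (replicate 1) and 5321 (replicate 2) at week 1, and 2922 at week 2. The array at week 2 was the lowest and day 0 the highest, and the week 1 arrays lay together between them. Relative to the array mean, *Slc2a1* stood at 0.833-fold of day 0 at week 1 (log2 ratio -0.26 ± 0.11, SE, with an adjusted p of 0.311 in limma) and 0.587-fold at week 2 (log2 ratio -0.77, standard error 0.12, 95% interval -1.11 to -0.43, adjusted p = 0.0647). From week 1 to week 2 the log2 ratio was -0.51 (adjusted p = 0.148). Its week 2 ratio was below 0 under each of the 5 scalings compared, between -1.34 and -0.45, and it passed limma only with the values as deposited (adjusted p = 0.0108), where 41.0% of all probe sets tested were called lower.

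The first enzyme steps came next, ahead of the split of the sugar. *Hk1*, the hexokinase that traps glucose as glucose 6-phosphate, had intensities of 341 at day 0, 310 and 298 at week 1, and 218 at week 2, with log2 ratios of 0.03 and 0.02 on the week 1 arrays and -0.08 at week 2 (95% interval -0.57 to 0.41). A dimmer probe set of *Hk1*, below the intensity filter, differed by 2.95 log2 units between the week 1 arrays. The week 2 value of *Hk1* turned above 0 under median (0.20), 75th percentile (0.24) and quantile scaling (0.19). *Gpi*, the isomerase that turns glucose 6-phosphate into fructose 6-phosphate, had intensities of 2552 at day 0, 3104 and 2559 at week 1, and 2152 at week 2. Its log2 ratios were 0.45 and 0.22 on replicates 1 and 2 at week 1 and 0.32 at week 2 (95% interval -0.15 to 0.79, adjusted p = 0.277), and the week 2 value was -0.25 with the values as deposited. In both genes the week 2 interval held 0.

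*Pfkm* encodes the muscle subunit of phosphofructokinase, the enzyme of the committed step. Its intensity was 204 at day 0, 148 and 162 at week 1, and 72.5 at week 2, so the week 2 array was the lowest and day 0 the highest. The log2 ratio was -0.21 at week 1 (standard error 0.21, adjusted p = 0.619) and -0.93 at week 2 (standard error 0.24, 95% interval -1.58 to -0.27, adjusted p = 0.0992 from limma), which is 0.525-fold. A second, dimmer probe set gave -0.36 and -0.95. The third probe set, below the intensity filter, had intensities of 10.6 at day 0, 24.2 and 2.14 at week 1, and 11.4 at week 2 and differed by 3.45 log2 units between the week 1 arrays. Under the 5 scalings the week 2 ratio of *Pfkm* was between -1.49 and -0.61, and with the values as deposited it passed limma (adjusted p = 0.0133).

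*Aldoa*, the aldolase that splits fructose 1,6-bisphosphate, had intensities of 5271 at day 0, 5230 and 4983 at week 1, and 3842 at week 2. Its log2 ratios of 0.15 at week 1 and 0.11 at week 2 (95% interval -0.23 to 0.45) turned to -0.07 and -0.30 after quantile normalization. *Tpi1*, the isomerase that interconverts both products of that split, had intensities of 3206 at day 0, 3604 and 3472 at week 1, and 2870 at week 2. The week 1 arrays lay close together, at log2 ratios of 0.34 and 0.33, and the week 1 interval of 0.03 to 0.64 left out 0. At week 2 its log2 ratio was 0.41 (standard error 0.13, 95% interval 0.06 to 0.76, adjusted p = 0.13), and -0.16 with the values as deposited.

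**Figure D1:**
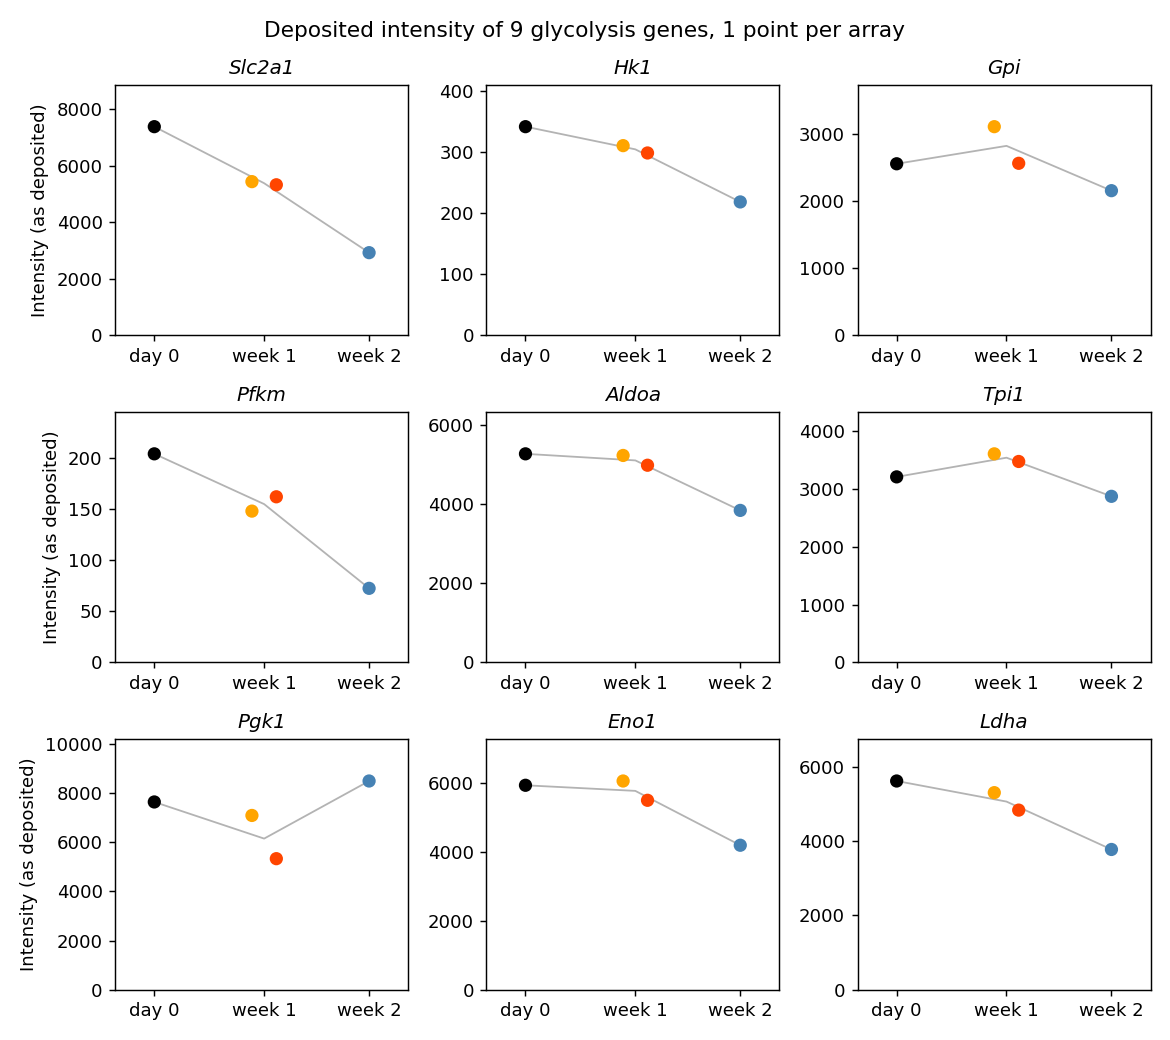
Deposited intensity (vertical axis of each panel, starting at 0) of the 9 genes at day 0 (black), on replicates 1 (orange) and 2 (red) at week 1 and at week 2 (blue), 1 point per array, with a line through the geometric mean of the week 1 arrays. *Pgk1* alone had its highest intensity at week 2, and the other genes had their lowest there, on an array whose mean intensity of 165.0 was below the 244.3 of day 0.

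The steps that yield ATP held the gene with the highest ratio at week 2. *Pgk1*, the phosphoglycerate kinase of the first ATP-forming step, had intensities of 7639 at day 0, 7090 and 5331 at week 1, and 8492 at week 2. The week 2 array was above the other arrays, and replicate 2 at week 1 was the lowest. The log2 ratio was 0.06 and -0.30 on replicates 1 and 2 at week 1, a difference of 0.36 that was the largest among the 9 genes. It was 0.72 at week 2 relative to day 0 (1.65-fold, standard error 0.22, 95% interval 0.13 to 1.31, adjusted p = 0.122 from limma) and 0.84 relative to week 1 (adjusted p = 0.151). The second probe set of *Pgk1*, whose suffix on this array type marks probes shared with other transcripts, had intensities of 5817 at day 0, 6022 and 3932 at week 1, and 9397 at week 2, with a log2 ratio of 1.26 at week 2 (adjusted p = 0.0924). The third probe set was at 0.824 at day 0 and 19.4 at week 2, below the intensity filter, and its ratio is not read here. The week 2 ratio of the brightest probe set was above 0 under each of the 5 scalings, between 0.15 and 1.04. With the mean of all 3 probe sets, the dimmest included, it was 2.37 (adjusted p = 0.0583 from limma), and 2.58 relative to week 1. That mean rests largely on the third probe set, at 5.12 at week 2, and is not read as the ratio of the gene.

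*Eno1*, the enolase that forms phosphoenolpyruvate, had intensities of 5920 at day 0, 6044 and 5485 at week 1, and 4183 at week 2. Its log2 ratio was 0.15 at week 1 and 0.07 at week 2 (95% interval -0.29 to 0.43), and -0.36 at week 2 after quantile normalization. *Ldha*, the lactate dehydrogenase subunit that favors lactate formation, had intensities of 5626 at day 0, 5312 and 4841 at week 1, and 3780 at week 2. Its log2 ratio was 0.04 at week 1 (95% interval -0.27 to 0.35) and -0.01 at week 2 (95% interval -0.37 to 0.35), so at week 2 a level between 0.776-fold and 1.28-fold of day 0 could not be told from no difference. The week 2 value of *Ldha* was 0.27 under median scaling and 0.31 under 75th percentile scaling. The plot of ratios by gene shows these values relative to the array mean.

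**Figure D2:**
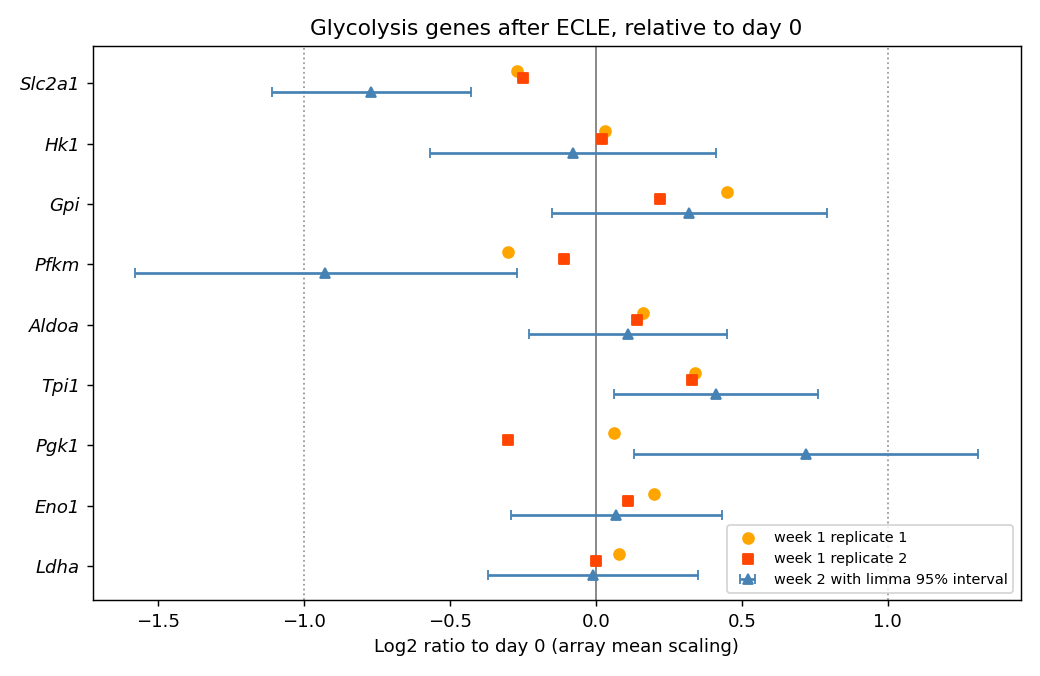
Log2 ratio to day 0 (horizontal axis, arrays scaled by their mean) of the 9 genes on replicate 1 (circles) and replicate 2 (squares) at week 1 and at week 2 (triangles, with 95% intervals from limma), with dotted lines at 2.0-fold and 0.5-fold. The week 2 intervals of *Slc2a1*, *Pfkm*, *Tpi1* and *Pgk1* leave out 0 before adjustment, although *Tpi1* was at -0.16 with the values as deposited.

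Differences between genes within an array do not depend on a single scaling factor. Relative to *Ldha*, the log2 ratio of *Slc2a1* was lower by 0.36 and 0.25 on replicates 1 and 2 at week 1 and by 0.76 at week 2. That of *Pfkm* was lower by 0.39 and 0.11 at week 1 and by 0.92 at week 2, and by 0.22 at week 2 after quantile normalization. *Pgk1* differed from *Ldha* by -0.02 and -0.30 at week 1 and by 0.73 at week 2. At week 2, *Pgk1* stood 1.49 log2 units above *Slc2a1* in ratio to day 0, and 1.37 after quantile normalization. These differences were computed after the values were seen and have no test of their own. The pattern under each scaling is in the plot of week 2 ratios.

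**Figure D3:**
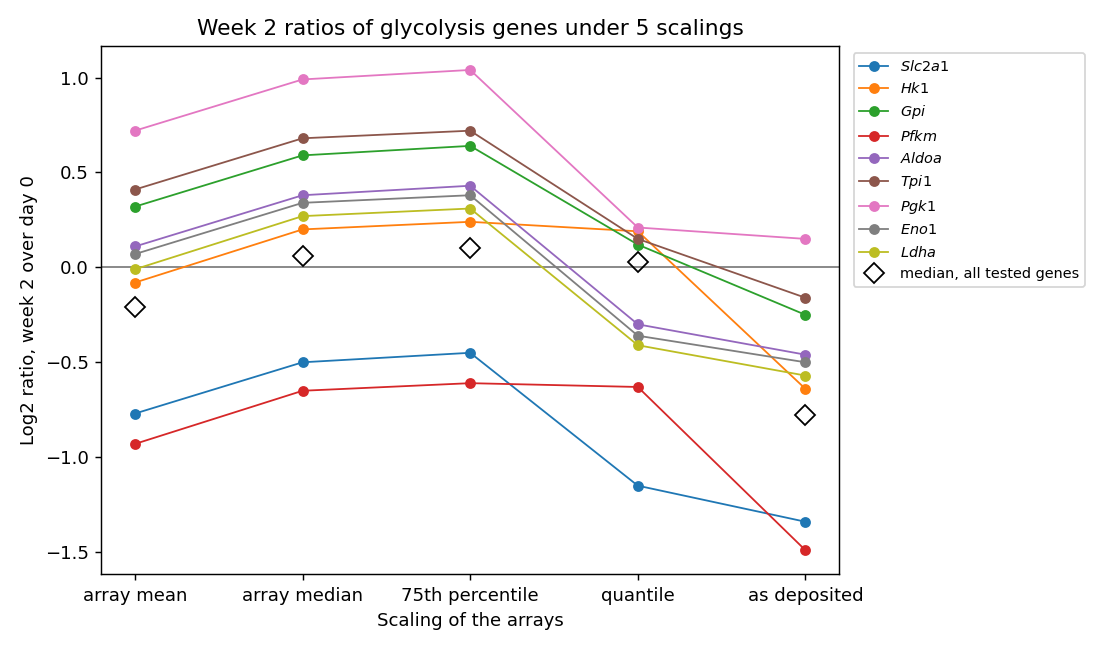
Log2 ratio of week 2 over day 0 (vertical axis) of the 9 genes (colored lines) with the arrays divided by their mean, median or 75th percentile, quantile normalized, or as deposited (horizontal axis), and the median of all genes tested (open diamonds). *Slc2a1* and *Pfkm* lie below 0 and *Pgk1* above 0 in each column, while *Hk1*, *Gpi*, *Aldoa*, *Tpi1*, *Eno1* and *Ldha* cross 0.

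The median absolute difference between the week 1 arrays was 0.08 log2 units over the 9 genes and 0.18 over all genes tested. *Pgk1*, *Gpi* and *Pfkm* were above the second value, and genes of like intensity were not compared. The probe sets of the 9 genes gave strong signal, a property of probe and transcript together, with 7 of them at or above the 98.7 percentile of their array on each of the 4 arrays. The exceptions were *Hk1* and *Pfkm*, which reached as low as the 66.3 percentile. Array medians lay between 31.9 at week 2 and 57.0 at day 0. The hexokinase control, read as its 3′ over its 5′ probe set to gauge how intact the labeled RNA was, stood at 1.57 at day 0, 1.93 and 1.63 at week 1, and 1.47 at week 2. That of beta-actin was highest at day 0, at 2.32, with 1.89 and 1.90 at week 1 and 1.61 at week 2, and that of GAPDH lay between 1.10 and 1.18. The part of RNA integrity in the ratios to day 0 was not tested.

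Isoenzymes of the same steps were measured for 12 of 17 further genes listed, and 9 of them passed the intensity filter. None was called by limma at either time, while by unadjusted p under 0.05 there were 1 higher and 1 lower at week 1 (10.4% and 8.92% of all genes tested) and 3 higher and 2 lower at week 2 (10.8% and 22.0%), shares that also stand behind the counts of the lists that follow. Their median log2 ratio was 0.06 at week 1 and 0.33 at week 2. *Eno3*, the muscle enolase, had intensities of 489 at day 0, 493 and 354 at week 1, and 826 at week 2, a log2 ratio of 1.32 at week 2 (standard error 0.26, adjusted p = 0.0753 from limma). *Ldhb*, the lactate dehydrogenase subunit of heart that favors lactate use, had 1035 at day 0, 819 and 1051 at week 1, and 332 at week 2, a log2 ratio of -1.07 at week 2 (standard error 0.25, adjusted p = 0.0903). Thus, relative to the array mean, both dehydrogenase subunits were near day 0 at week 1, and at week 2 *Ldhb* alone was under 0.5-fold of it. Ratios of the isoenzymes, and of genes in the lists that follow, were not compared under other scalings. *Pfkp*, the platelet subunit of phosphofructokinase, had 192 at day 0, 375 and 290 at week 1, and 166 at week 2, with log2 ratios of 0.97 (adjusted p = 0.174) and 0.36. *Pfkl*, the liver subunit, had intensities of 786 at day 0, 813 and 736 at week 1, and 632 at week 2, with log2 ratios of 0.17 and 0.25. Of the subunits of phosphofructokinase, *Pfkm* alone thus had a week 2 ratio below 0 relative to the array mean. *Hk2*, the hexokinase of muscle and fat, had intensities of 177 at day 0, 84.9 and 104 at week 1, and 64.8 at week 2, with log2 ratios of -0.72 and -0.88 (adjusted p = 0.278 and 0.146). *Aldoc*, *Pgam1*, *Bpgm* and *Eno2* had week 2 log2 ratios between 0.32 and 0.51. *Ldhc*, *Pgam2* and *Pklr* were below the filter.

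Of 12 other glucose or sugar transporters listed, 10 had a probe set and 4 passed the filter, and limma called none (1 higher at an unadjusted p under 0.05 at week 1, 1 higher and 1 lower at week 2). *Slc2a3*, which encodes GLUT3, the transporter of rat lens fibers, had intensities of 61.9 at day 0, 108 and 119 at week 1, and 74.3 at week 2. Its log2 ratio was 1.06 at week 1 and 0.83 at week 2 (adjusted p = 0.179 and 0.142), while its second, dimmer probe set, below the filter, had -0.03 and 0.46 on replicates 1 and 2 at week 1 and 0.00 at week 2. *Slc2a8*, an intracellular transporter, had 77.6 at day 0, 57.8 and 60.7 at week 1, and 15.7 at week 2 (log2 ratio -1.74 at week 2, adjusted p = 0.0791). *Slc2a13*, a myo-inositol transporter, was at 456 on replicate 1 and 899 on replicate 2 at week 1, so its week 1 log2 ratio of 1.14 rests largely on replicate 2. *Slc2a5*, the fructose transporter, had log2 ratios of 1.04 and 0.94. *Slc2a2*, *Slc2a6*, *Slc2a9*, the insulin-responsive *Slc2a4* and the sodium-coupled transporters *Slc5a1* and *Slc5a2* were below the filter, with intensities between 0.18 and 27.3.

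Lactate leaves the cell through carriers of the SLC16A family, and pyruvate enters mitochondria to be oxidized. Of 13 genes of these steps listed, 12 had a probe set and 11 were tested, with none called by limma and a median log2 ratio of -0.01 at week 1 and -0.24 at week 2. At an unadjusted p under 0.05, 1 was higher and 2 were lower at week 1, and 2 were higher and 3 lower at week 2. *Slc16a1*, which encodes the lactate carrier MCT1, had intensities of 2004 at day 0, 930 and 1005 at week 1, and 354 at week 2. The log2 ratio was -0.86 at week 1 and -1.93 at week 2 (standard error 0.17, adjusted p = 0.0553 from limma), and *Slc16a1* was singled out after its values were seen. *Bsg*, which encodes basigin, the partner that carries MCT1 to the membrane, had 5439 at day 0, 3508 and 4054 at week 1, and 1964 at week 2, a log2 ratio of -0.90 at week 2 (adjusted p = 0.0755). *Pdha1*, the catalytic subunit of pyruvate dehydrogenase, had 808 at day 0, 1047 and 932 at week 1, and 1259 at week 2, a log2 ratio of 1.21 at week 2 (standard error 0.15, adjusted p = 0.0577), and a second probe set gave 1.64. *Slc16a8*, the lactate carrier of the retinal pigment epithelium, was below the filter.

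Among 12 measured regulators of glycolysis, 9 were tested and none was called by limma (2 lower at an unadjusted p under 0.05 at week 2, 0 otherwise), with a median log2 ratio of -0.12 at week 1 and -0.28 at week 2. *Hif1a*, the oxygen-sensitive subunit of HIF, had intensities of 8230 at day 0, 6472 and 5599 at week 1, and 3555 at week 2, a log2 ratio of -0.64 at week 2 (standard error 0.15, adjusted p = 0.0871). *Pfkfb3*, which makes the activator of phosphofructokinase, had log2 ratios of -0.27 at week 1 and 0.39 at week 2. *Pfkfb1* and *Arnt* were below the filter. Of 18 other genes known to be induced by hypoxia, 17 had a probe set and 15 were tested, and their median log2 ratio was -0.25 at week 1 and -0.14 at week 2. limma called none of them, and at an unadjusted p under 0.05 there were 1 higher and 3 lower at week 1 and 2 higher and 3 lower at week 2. *Bnip3*, a mitochondrial inducer of autophagy, had 0.49 at week 2, and its relative *Bnip3l* 0.23. Of the others, *Ndrg1* and *Vegfa* were picked with their values in view. *Ndrg1*, a stress-responsive gene of differentiating cells, had intensities of 833 at day 0, 1043 and 719 at week 1, and 6481 at week 2, which is 11.5-fold of day 0 (adjusted p = 0.0553), and its second probe set gave 14.2-fold. *Vegfa*, the vascular growth factor, had ratios, in log2, of -0.83 at week 1 and -0.55 at week 2 (adjusted p = 0.147 and 0.129). *Adm* and *Car12* were below the filter.

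**Figure D4:**
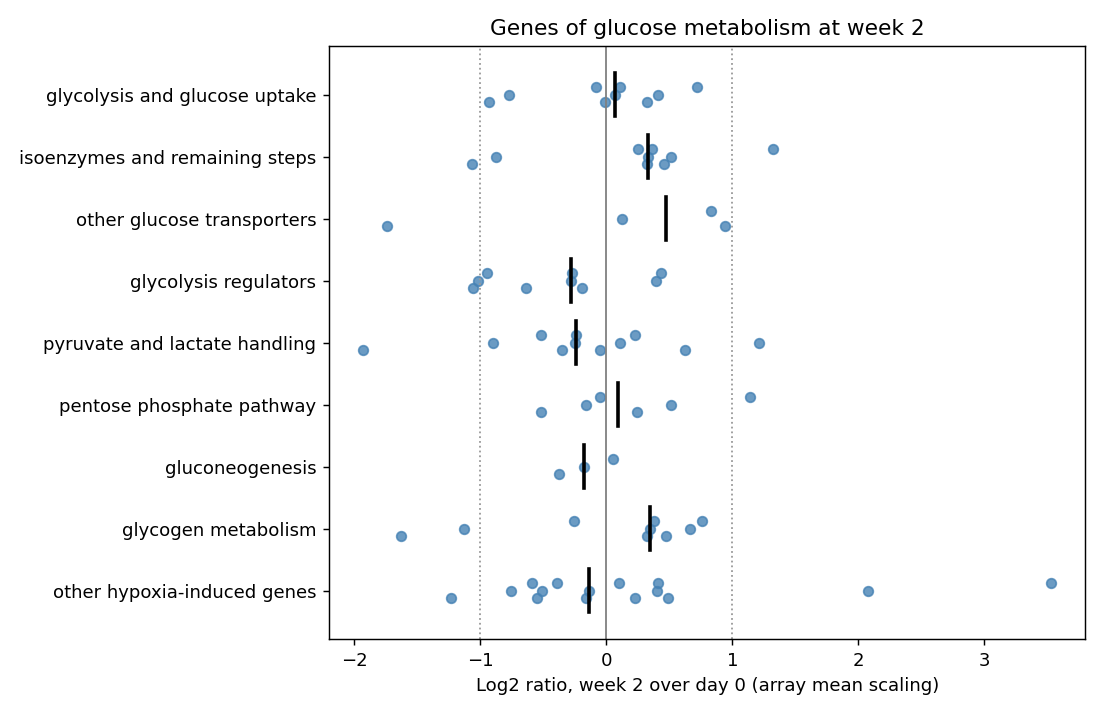
Log2 ratio of week 2 over day 0 (horizontal axis, arrays scaled by their mean) of each gene tested (points, 1 per gene, spread vertically for visibility) in 9 groups of glucose metabolism and hypoxia response, with the group median (black bars) and dotted lines at 2.0-fold and 0.5-fold. The median of the 9 glycolysis genes was 0.07 and that of pyruvate and lactate handling -0.24, and the point farthest to the right is *Ndrg1*.

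Markers of cell types that the capsule could hold differed from day 0 at the same times, and in bulk RNA fewer cells of a type and less RNA per cell cannot be told apart. Of all 14217 genes, tested or not, 1277 were over 2.0-fold and 1189 under 0.5-fold at week 1. At week 2 it was 1705 over and 2086 under, and the marker counts below also take in genes not tested. Of 11 lens epithelium markers, 4 were under 0.5-fold at week 2 (median log2 ratio -0.54), beside the week 2 ratio of *Slc2a1*. Another 4 were above day 0, among them the brightest by mean level, *Cryaa* (0.69) and *Cryab* (0.61). Whether the signal of these 4 came from epithelium or from fibers cannot be told in bulk RNA. The summed intensity of the 11, in units of the array mean, was 208 at day 0, 203 and 199 at week 1, and 203 at week 2. This sum weighs the brightest markers most and does not show the lower ratios of the others. Of 12 lens fiber markers measured, 7 were over 2.0-fold at week 2 (median 1.19), while at week 1 there were 1 over 2.0-fold and 4 under 0.5-fold (*Bfsp1*, *Crygb*, *Crygc* and *Crygd*, log2 ratios between -8.47 and -2.11), and their sum was 245, 269, 231 and 506 in the same order. Among them, *Mip*, the water channel of fibers, had the highest log2 ratio at week 2, at 3.72, beside the 0.72 of *Pgk1*. On replicates 1 and 2 at week 1 *Mip* was at 1.83 and 0.49, where *Pgk1* was at 0.06 and -0.30. The brightest fiber markers by mean level, *Cryba1* and *Crybb2*, had 0.20 and 0.48 at week 2. Of 11 photoreceptor markers, all were under 0.5-fold at week 1 and at week 2, with a summed level of 63.3 at day 0, 6.37 and 26.9 at week 1, and 8.44 at week 2. The week 1 arrays differed in these markers, with a median log2 ratio of -3.45 on replicate 1 and -1.22 on replicate 2. Of 14 macrophage markers, 12 were over 2.0-fold at each time, with a sum of 4.08 at day 0, 36.7 and 24.8 at week 1, and 17.9 at week 2. Of 11 skeletal muscle markers, 6 were over 2.0-fold at week 2, 3 of them (*Mb*, *Myh2* and *Tnnc2*) below the filter. The sum of the 11 was 8.34 at day 0, 6.62 and 7.50 at week 1, and 11.7 at week 2, beside the week 2 ratio of *Eno3*. Most of that sum was *Myh1*, with an intensity of 1828 of a summed 2038 at day 0 and 1573 of 1931 at week 2. *Ckm*, the muscle creatine kinase, had a log2 ratio of 2.28, while the brightest marker *Myh1* had 0.35, *Tnni2* -0.50 and *Tnnt3*, below the filter, -1.16. Of 4 red blood cell markers measured, *Hbb* was under 0.5-fold at week 2 and *Slc4a1*, below the filter, over 2.0-fold, with a sum of 2.23 at day 0, 0.719 and 0.938 at week 1, and 1.14 at week 2. *Bfsp1*, *Crygb*, *Crygc*, *Crygd*, *Mb*, *Myh2* and *Tnni2* were picked with their values in view. The part of these cells in the ratios of the glycolysis genes was not tested.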

How the data were processed

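Lens capsule RNA was hybridized to the Affymetrix rat genome array. The authors labeled and scanned the arrays and deposited probe set values in linear intensity, for which Command Console and Expression Console of Affymetrix were used (the second also in the submitters' processing notes). How probes were summarized is not given in the sources consulted. Without the 57 control probe sets, each array was divided by its mean intensity and log2 was taken. The dimmest probe sets, under the 40th percentile of mean level, were left untested, and limma 3.58.1 under R 4.3.3 was run on the other 18625, of which 10455 represent a gene (3 groups, intensity trend, two-sided). The fit has 1 residual degree of freedom, from the week 1 arrays, and 3.12 prior ones, so the spread of day 0 and week 2 is taken to be that of week 1. The week 1 replicates are labeled biological, and p-values rest on their spread alone. Intervals are unadjusted. The script was tested on simulated data. Dim probe sets are the least certain, and the number of arrays limits the precision. The ratios to day 0 share 1 array.

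Genes and lists were chosen with earlier results of these data known. Named genes are all members, isoenzymes and transporters and, of each other list, called genes, the highest and lowest at week 2 and the 2 brightest, and others are marked. Symbols come from the platform annotation, 20812 of 20826 being in the RefSeq table of GRCr8. Python 3.11.15, numpy 2.4.6, pandas 2.3.3 and matplotlib 3.10.9 were used. Alternatives were other scalings, a floor, other filters, limma without a trend or robust, the mean of a gene's probe sets, arrays after ECLE as 1 group and each week 1 replicate left out.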

Additional observations from a re-analysis of the deposited data

How the results depend on the processing

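None of the 9 genes passed limma under the settings compared except with the values as deposited, where *Slc2a1* and *Pfkm* were called lower at week 2 than at day 0 (2 genes, log2 ratios -1.34 and -1.49) and than at week 1 (2 genes, -0.88 and -1.10). Over all probe sets tested, the counts called higher and lower, 9 and 0 at each time and 0 between the times, were 260 and 146 at week 1, 948 and 683 at week 2 and 158 and 51 between the times under median scaling, 276 and 123 at week 2 under 75th percentile scaling, and 87 and 163, 344 and 7630, and 193 and 4228 as deposited. At week 2 they were 0 after quantile normalization, with the mean of all probe sets and without a trend, 6 and 0 without a filter, and 5 and 0 with a floor or a stricter filter. At week 1 they were 0 without a trend and 5 and 0 with the mean of all probe sets, and with arrays after ECLE as 1 group they were 4 and 0. The number past the fold rule at week 2, 0 with the array mean, was 2 as deposited (*Slc2a1* and *Pfkm*). It was 1 under 75th percentile scaling (*Pgk1*, 1.04), 1 after quantile normalization (*Slc2a1*, -1.15) and 1 with the mean of all probe sets. With that mean *Pfkm* fell below the filter and was not tested. The median log2 ratio of the 9 genes at week 1 was 0.16 under median scaling, 0.12 under 75th percentile scaling, -0.09 after quantile normalization and -0.15 as deposited, and at week 2 0.34, 0.38, -0.30 and -0.50 in the same order. Without a week 1 replicate, the week 1 median was 0.02 to 0.08. Single-gene values under other settings numbered 285. Those with only another filter, or with limma without a trend or robust, keep the same ratio and could not change sign. Nor could those with a floor, which lay below the brightest probe set of every member. The mean of all probe sets also keeps the ratio of each gene with 1 probe set. The ratio with arrays after ECLE as 1 group is counted at both times. Of the 285, 245 kept their direction and their side of the threshold, 4 passed it and 36 changed sign. After quantile normalization these were *Aldoa* (-0.07 at week 1, -0.30 at week 2), *Eno1* (-0.09, -0.36), *Ldha* at week 1 (-0.19), *Hk1* at week 2 (0.19) and, for week 2 over week 1, *Hk1* (0.09) and *Tpi1* (-0.09). Under median scaling they were *Hk1* (0.20) and *Ldha* (0.27) at week 2 and, for week 2 over week 1, *Aldoa* (0.12), *Eno1* (0.07), *Gpi* (0.14), *Hk1* (0.05) and *Ldha* (0.10). Under 75th percentile scaling they were *Hk1* (0.24) and *Ldha* (0.31) at week 2 and, for week 2 over week 1, *Aldoa* (0.20), *Eno1* (0.15), *Gpi* (0.22), *Hk1* (0.14) and *Ldha* (0.19). As deposited they were *Aldoa* (-0.05, -0.46), *Eno1* (-0.04, -0.50), *Hk1* (-0.17) and *Ldha* (-0.15) at week 1, *Gpi* (-0.25) and *Tpi1* (-0.16) at week 2 and *Tpi1* (-0.30) for week 2 over week 1. With the mean of all probe sets, *Hk1* was at -0.74 at week 1 and 0.70 for week 2 over week 1. *Pgk1*, the gene past the fold rule there, was at 2.37 at week 2 without a change of sign. For both genes that mean takes in a probe set below the intensity filter. With arrays after ECLE as 1 group, *Hk1* was at -0.01, *Ldha* at 0.03 and *Pgk1* at 0.16. Leaving out a week 1 replicate gave -0.30 to 0.06 for *Pgk1* at week 1 and -0.13 to 0.10 for *Gpi* in week 2 over week 1. The causes were not tested, and dim probe sets limit *Hk1*, *Pfkm* and, where all its probe sets are averaged, *Pgk1*. No paired analysis was possible because only week 1 has more than 1 array, and no test was possible without a week 1 replicate, since no residual degrees of freedom are left.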

Other observations

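Branches of glucose metabolism that leave or enter the pathway were also measured, and limma called none of their genes at either time. Of 10 measured genes of glycogen metabolism, 9 were tested, with a median log2 ratio of 0.35 at both times, and at an unadjusted p under 0.05 there were 2 higher and 1 lower at week 1 and 3 higher and 2 lower at week 2. *Pygb*, the brain form of glycogen phosphorylase, had intensities of 2105 at day 0, 944 and 1072 at week 1, and 460 at week 2, a log2 ratio of -1.63 at week 2 (standard error 0.18, adjusted p = 0.0558 from limma). *Gyg1*, glycogenin, which primes glycogen, had log2 ratios of 0.76 at week 1 and 0.47 at week 2 (adjusted p = 0.149 and 0.148).

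Of 6 measured genes of the pentose phosphate pathway, which makes NADPH and ribose, all were tested (by unadjusted p under 0.05, 2 were higher and 1 lower at week 1, and 0 higher and 1 lower at week 2), with a median log2 ratio of 0.28 at week 1 and 0.10 at week 2. *Tkt*, transketolase, had intensities of 6454 at day 0, 4243 and 3671 at week 1, and 3038 at week 2, with log2 ratios of -0.52 at both times (adjusted p = 0.195 and 0.113). *Rpia*, ribose 5-phosphate isomerase, had 1.40 and 1.14 by its brightest probe set, while its second probe set had -0.22 and 0.80. *Taldo1*, transaldolase, had 0.16 and 0.24. Of 6 measured genes of gluconeogenesis, 3 were tested (0 at an unadjusted p under 0.05), with a median log2 ratio of -0.22 at week 1 and -0.18 at week 2. *Pck2*, the mitochondrial phosphoenolpyruvate carboxykinase, had log2 ratios of 0.48 at week 1 and -0.38 at week 2 (-0.29 and -1.21 by its second probe set), and *G6pc3*, a glucose 6-phosphatase, -0.22 and -0.18. *Fbp1* and *Fbp2* were below the intensity filter.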
